A study of Mus musculus with 24 samples.

Results

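The genes described here mark the cells of the brain's blood vessels. They were taken as a list of 33 symbols, 25 of endothelial cells, which line the vessel, and 8 of mural cells, the pericytes and smooth muscle cells wrapped around it, and those found by symbol in the deposited table were kept. Of the 33 genes, 31 were present among the 13998 genes of the table, 23 endothelial and 8 mural. Erg and Emcn were not analysed here.

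Expression was measured by SAGE-Seq, which sequences a 27-base tag near the 3′ end of each transcript, in the hypothalamus of 24 singly housed adult male F2 mice, with 1 library per mouse. The mice came from a C57BL/6J by B6.CAST-17.1 subcongenic intercross and were non-recombinant, 12 being cast/cast (CAST/EiJ alleles) and 12 b6/b6 over the proximal Chr 17 segment, with b6/b6 alleles over the remaining genome in both groups. All had chosen freely between a carbohydrate/protein (C/P) and a fat/protein diet for 10 d, had then been returned to chow, and were killed about 48 h after both diets were offered again. The cast/cast mice were those that ate the most carbohydrate and the b6/b6 mice those that ate the least, so that genotype and intake cannot be told apart between the groups. None of the 31 genes lies on Chr 17, so in both genotypes each of them carries b6 alleles.

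Endothelial cells of the brain form the blood-brain barrier. Tight junctions seal the gaps between them, transporters in their membranes carry chosen molecules across or pump others out, and signals through the vascular endothelial growth factor (VEGF), angiopoietin and Wnt pathways build and maintain the layer. Pericytes sit on capillaries within the basement membrane, and smooth muscle cells with a contractile apparatus surround arteries and arterioles. The hypothalamus holds both ordinary barrier vessels and, at the median eminence, leaky ones through which hormones and nutrients pass.

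Each library gave 7754202 to 13082873 tag hits on genes. The values are tag hits divided by a size factor of the library, called normalized counts below, and 3 tag hits, the smallest number taken as detectable, equal 2.36 to 3.81 normalized counts depending on the mouse. As each transcript gives 1 tag whatever its length, levels can be compared between genes, as far as the tags of each gene were mapped. Tags carry no molecular identifiers, so the limit of 3 tag hits covers counting error only. The median study number was 120.5 for the cast/cast and 269.5 for the b6/b6 animals. The libraries of b6/b6 mice 12 and 6 were the least alike to the others, with mean correlations of 0.854 and 0.887 against group medians of 0.940 in b6/b6 and 0.939 in cast/cast, followed by cast/cast mice 6 (0.895) and 1 (0.911). Blood transcripts (Hba-a1, Hba-a2 and Alas2) summed to 121 to 4999 normalized counts in b6/b6 mice, with a median of 527, and to 105 to 782 in cast/cast mice, with a median of 255. The b6/b6 mice 6 (4999) and 12 (1704) had the highest sums of all 24 animals.

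The 31 genes spanned almost the whole range of the table. Bsg, which encodes basigin, the partner protein that brings monocarboxylate transporters to the membrane and which many brain cells also make, was the 12th most abundant of all 13998 genes with a mean of 49600 normalized counts. It alone made up 70.1% to 94.2% of the summed counts of the 31 genes in b6/b6 mice and 84.6% to 95.1% in cast/cast mice, so no sum over the list is used here. The next were Itm2a, a membrane protein of endothelial and other cells, at 974, Vtn, the secreted adhesion protein vitronectin made by pericytes, at 901, Ly6c1 at 754 and Egfl7 at 754. At the other end Kdr and Sox18 had means of 7.39 and 7.47. In 25 of the 31 genes every mouse had more than 3 tag hits, and the exceptions were Kdr, Ramp2, Sox18, Vwf, Acta2 and Tagln, of which Kdr, Sox18 and Vwf were at 0 in at least 1 mouse. In bulk tissue, fewer vascular cells and less RNA per cell cannot be told apart.

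**Figure D1:**
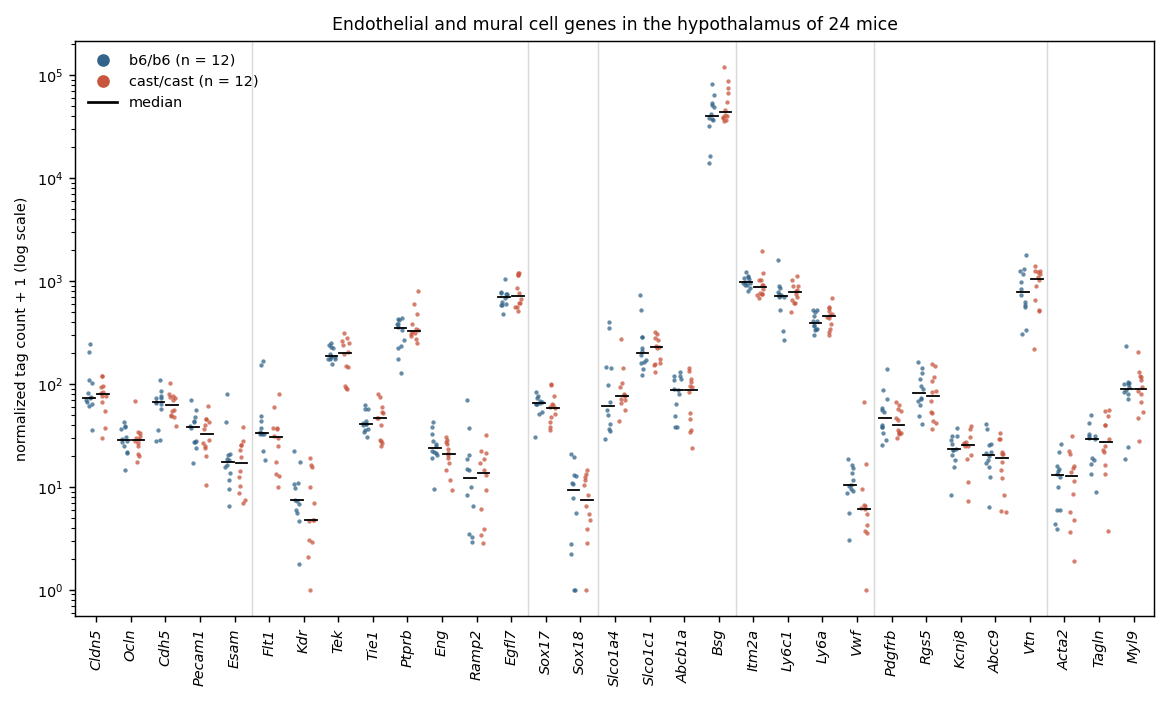
Normalized tag count plus 1 (log axis) of each of the 31 genes in every mouse, with b6/b6 mice in blue, cast/cast mice in red, 12 of each, and black bars at the medians; grey lines separate the roles named in the text, from junction genes on the left to contractile genes on the right. The genotypes overlap in all 31 genes, Bsg stands far above the rest at a mean of 49600, and the single highest values of several genes belong to b6/b6 mice 6 and 12. The share of all genes in which the genotypes overlap was not computed.

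The question put to these genes was whether the vascular transcripts of the hypothalamus differed between the genotypes, and no gene of the list met the criteria applied to all genes. A gene was called when limma gave an unadjusted P of at most 0.01 and the mean normalized counts differed by a ratio of at least 1.5, which 208 of the 13998 genes (1.49%) met. Of the 31 vascular genes 0 were called, 0 had an unadjusted P under 0.05 in the limma fit, and 0 had a Benjamini-Hochberg adjusted P of at most 0.05. Of all genes, 3.76% had a P under 0.05 with a higher level and 4.37% with a lower level in cast/cast mice. With edgeR on the tag hits the count under 0.05 was also 0, where 11.6% of all genes passed. With DESeq2 it was 2, Flt1 and Vwf, both lower in cast/cast, where 12.1% of all genes passed. Log2 fold changes, given throughout as cast/cast minus b6/b6, were positive in 13 and negative in 18 of the 31 genes, from -0.64 to 0.44. Their median was -0.09, against -0.02 for all genes, and it was 0.00 without b6/b6 mice 6 and 12.

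The precision differed from gene to gene. The 95% interval of the log2 fold change lay within a 2.0-fold difference in either direction for 26 of the 31 genes (83.9%, against 79.5% of all genes), and within a 1.5-fold difference for 9 (29.0%, against 36.3%), which were Ocln, Cdh5, Tek, Tie1, Egfl7, Sox17, Itm2a, Ly6a and Kcnj8. For the other 22 genes a 1.5-fold difference in at least one direction lay inside the interval. In 5 genes, Flt1, Kdr, Ramp2, Sox18 and Vwf, the interval also took in a 2.0-fold difference. The median spread of the 31 genes within a genotype was 0.66 on the log2 scale, against 0.57 over all genes, and their median level of 61.1 normalized counts was below that of all genes, 151. Among the 10 genes with means of at least 100 the median spread was 0.53, against 0.49 for all genes at that level.

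**Figure D2:**
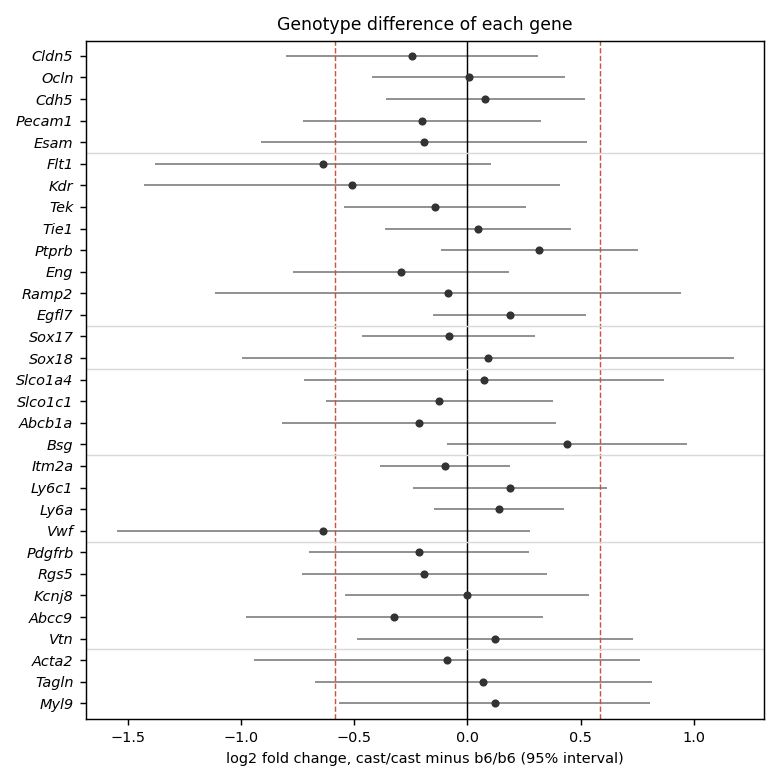
Log2 fold change between genotypes (cast/cast minus b6/b6) of each of the 31 genes from limma, with points at the estimates, bars spanning the 95% interval and red dashed lines at a 1.5-fold difference. All 31 intervals include 0, and the widest belong to the rarest transcripts, such as Sox18 and Ramp2.

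None of the junction and adhesion genes differed beyond the spread between mice. Cldn5, which encodes claudin-5, the main tight junction protein of brain endothelium, ranged from 34.4 to 245 normalized counts in b6/b6 mice (median 72.6) and from 29.1 to 119 in cast/cast mice (median 77.8). The groups overlapped, and the 2 highest b6/b6 values, 245 and 204, were those of mice 12 and 6. The means were 97.8 ± 62.5 (SD, n = 12) and 76.7 ± 28.0 (n = 12), a log2 fold change of -0.25 ± 0.27 (SE, limma, adjusted P = 0.794), and without mice 6 and 12 the b6/b6 mean was 72.5. Ocln, the tight junction protein occludin, had medians of 27.6 in b6/b6 against 27.4 in cast/cast mice. Cdh5, the adherens junction protein VE-cadherin, had medians of 65.0 and 61.7 with an interval of the log2 fold change from -0.36 to 0.52. Pecam1, the adhesion molecule CD31, and Esam, another endothelial adhesion molecule, had log2 fold changes of -0.20 ± 0.26 and -0.19 ± 0.35 (SE). Across these 5 genes the lowest unadjusted limma P was 0.372.

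Among the receptors, ligands and their regulators Flt1 had the lowest P of all 31 genes. It encodes VEGF receptor 1, which binds VEGF tightly and, as a shorter secreted form, holds it away from the signalling receptor. In b6/b6 mice it ranged from 17.2 to 165 normalized counts with a median of 32.6, and in cast/cast mice from 8.89 to 78.3 with a median of 29.2. The groups overlapped over most of their range, 4 of 12 cast/cast mice were below the lowest b6/b6 value, and b6/b6 mice 12 (165) and 6 (150) stood far above the other mice of their genotype. The means of 53.4 ± 49.5 and 31.3 ± 20.3 (SD, n = 12 each) differed 1.70-fold, with a log2 fold change of -0.64 ± 0.36 (SE) and an unadjusted limma P of 0.0898 (adjusted P = 0.637). Without the 2 high b6/b6 mice the log2 fold change was -0.25 (unadjusted limma P = 0.404) and the b6/b6 mean was 32.5. The highest blood transcript sums were in those same 2 mice, and the part of blood or vessel content in the value was not tested.

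The tags of Flt1 are shown because the deposited table holds a single value for the gene while its forms end in different exons. They were predicted from the annotated transcripts as the 27 bases that begin at the last CATG, the site of the anchoring enzyme NlaIII, which is in capitals. The full-length form of 30 exons has its tag at chr5:147561635-147561661 in the last exon, and the shorter form of 13 exons at chr5:147635664-147635690 (GRCm38, minus strand), both in the 3′ UTR. The first lies 560 bases beyond the end given for the gene in the deposited table, so which form was counted is not known from these files.
Flt1, form of 30 exons: CATGatgaatgtatttcacatattatc
Flt1, form of 13 exons: CATGgaatccgggccacagcatcactt

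Kdr, VEGF receptor 2 and the main signalling receptor of the pathway, was near the limit of detection, with 2 b6/b6 and 5 cast/cast mice at or under 3 tag hits and medians of 6.39 and 3.78 normalized counts. Tek and Tie1 encode the angiopoietin receptor TIE2 and its partner. The medians of Tek were 184 in b6/b6 against 197 in cast/cast mice, and those of Tie1 were 39.8 and 45.7. Both were spread more widely in cast/cast mice: Tek ran from 156 to 246 in b6/b6 and from 88.3 to 307 in cast/cast mice, with 4 cast/cast mice above and 5 below every b6/b6 mouse, and the highest Tie1 value was 61.1 in b6/b6 but 78.3 in cast/cast mice. Of all 31 genes 18 (58.1%) had the larger coefficient of variation in cast/cast mice, against 48.1% of all genes, a difference for which no test was made. Ptprb, the phosphatase VE-PTP that restrains TIE2, had means of 312 ± 105 and 389 ± 162 (SD, n = 12 each), a log2 fold change of 0.32 ± 0.21 (SE, unadjusted limma P = 0.145). The highest cast/cast value of Ptprb, 804 in mouse 6, was the highest of all 24 mice. Eng (endoglin, a co-receptor for transforming growth factor beta) and Egfl7 (a secreted endothelial matrix protein) had log2 fold changes of -0.29 ± 0.23 and 0.19 ± 0.16 (SE). Ramp2, the accessory protein that makes the calcitonin receptor-like receptor respond to adrenomedullin, had medians of 11.3 and 12.7.

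Neither of the 2 endothelial transcription factors measured differed beyond the spread between mice. Sox17 had medians of 63.7 in b6/b6 against 57.7 in cast/cast mice, with a log2 fold change of -0.08 ± 0.19 (SE). Sox18 was at or under 3 tag hits in 4 mice of each genotype, and its interval reached 1.17 on the log2 scale.

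The barrier transporters included the abundant Bsg. Bsg ranged from 13919 to 81976 normalized counts in b6/b6 mice (median 39627) and from 35310 to 119616 in cast/cast mice (median 43179). The 2 lowest b6/b6 values, 13919 and 16149, were again those of mice 12 and 6, which were here the low and not the high animals, and 2 cast/cast mice exceeded the b6/b6 maximum. The means were 42718 ± 18919 and 56481 ± 26079 (SD, n = 12 each), 1.32-fold higher in cast/cast mice, with a log2 fold change of 0.44 ± 0.26 (SE, unadjusted limma P = 0.100, adjusted P = 0.639). With b6/b6 mice 6 and 12 left out the log2 fold change was 0.17 (unadjusted limma P = 0.432). The first 2 principal components of the data were computed after subtraction of each genotype's mean. As covariates they can therefore change the error of a fold change but not the fold change itself. With them the log2 fold change was 0.44 ± 0.07 (SE, limma, adjusted P = 0.000249), below the 1.5-fold minimum of a call. In that fit 1375 of all genes had an adjusted P of at most 0.05, against 80 without the components. Bsg itself had r = 0.92 with the first component. As the components come from these same data and act on the error alone, this P cannot establish a genotype difference. Slco1a4, an organic anion transporter, and Slco1c1, the thyroxine transporter of the barrier, had medians of 59.9 and 198 in b6/b6 mice and of 75.8 and 225 in cast/cast mice. Their highest b6/b6 values, 397 for Slco1a4 in mouse 12 and 720 for Slco1c1 in mouse 6, lay above every cast/cast mouse. Without mice 6 and 12 the log2 fold change of Slco1a4 was 0.51 in place of 0.07 (unadjusted limma P = 0.103 without them). Abcb1a, the efflux pump P-glycoprotein, had medians of 87.0 and 86.6.

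Of the remaining endothelial genes Itm2a and Ly6a had the narrowest intervals. Itm2a had means of 989 ± 121 and 959 ± 347 (SD, n = 12 each), with an interval of the log2 fold change from -0.39 to 0.19, and its single highest value, 1949, was in cast/cast mouse 6. Ly6a, the surface protein Sca-1, and Ly6c1 are members of 1 family, both on Chr 15. Ly6a had medians of 389 and 453 and Ly6c1 of 715 and 772. Their tags are shown because related genes can share tags, and each of these was found in 1 annotated gene alone. That of Ly6a lies at chr15:74994902-74994928 and the 3 predicted tags of Ly6c1 at chr15:75044069-75044095, chr15:75045047-75045073 and chr15:75045655-75045681 (GRCm38, minus strand), all in 3′ UTRs.
Ly6a: CATGtatcctgaatgtccccctgttga
Ly6c1, first: CATGgagctgagtcgatcattagctgc
Ly6c1, second: CATGtatgcctgtcaatgacccctgtt
Ly6c1, last: CATGttgcccagatatggggatgctct

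Vwf, the clotting protein von Willebrand factor, showed how 1 animal can set a mean. It ranged from 2.08 to 17.8 normalized counts in b6/b6 mice with a median of 9.33, and from 0 to 65.3 in cast/cast mice with a median of 5.12. The value of 65.3 belonged to cast/cast mouse 6, and the next highest cast/cast value was 15.6. The means, 10.0 ± 4.45 and 10.3 ± 17.7 (SD, n = 12 each), were alike, while the log2 fold change was -0.64 ± 0.44 (SE, unadjusted limma P = 0.164). Without mouse 6 the cast/cast mean was 5.32. On the tag hits of all mice the log2 fold change was -0.89 with DESeq2 (unadjusted DESeq2 P = 0.0160) and -0.01 with edgeR (unadjusted edgeR P = 0.982).

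Of the pericyte genes Vtn was the most abundant, ranging from 304 to 1795 in b6/b6 mice (median 782) and from 218 to 1407 in cast/cast mice (median 1051). The groups overlapped, with 1 cast/cast mouse below the b6/b6 minimum and the b6/b6 maximum above every cast/cast mouse, and the log2 fold change was 0.12 ± 0.30 (SE). Rgs5, a brake on G protein signalling, had means of 90.2 and 81.7, and Pdgfrb, the receptor through which endothelial PDGF-B recruits pericytes, of 54.5 and 43.1. Kcnj8 and Abcc9 encode the pore and the sulphonylurea receptor of the potassium channel that couples pericytes and smooth muscle to their energy state. The log2 fold change of Kcnj8 had an interval from -0.54 to 0.54, and that of Abcc9 was -0.32 ± 0.32 (SE). The lowest unadjusted limma P among the 5 pericyte genes was 0.320.

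None of the contractile genes of smooth muscle differed beyond the spread between mice. Acta2 (smooth muscle actin) had medians of 12.0 and 11.6, Tagln (transgelin, an actin-binding protein) of 28.4 and 26.0, and Myl9 (a regulatory myosin light chain) of 88.6 and 87.7 in b6/b6 and cast/cast mice. Their log2 fold changes ran from -0.09 to 0.12 with standard errors of 0.33 to 0.42, and the lowest unadjusted limma P was 0.723.

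Mice of 1 genotype differed widely from one another in these transcripts. Within b6/b6 mice, mouse 6 or mouse 12 had the highest count of the genotype in 14 of the 31 genes. Within cast/cast mice, mouse 6 or mouse 11 did so in 20 of the 31. These mice were picked out after their values were seen, and the share over all genes was not computed. The lowest count of the genotype was that of b6/b6 mouse 12 in 4 genes and mouse 6 in 0, and of cast/cast mouse 6 in 5 and mouse 11 in 1. In b6/b6 mice it was that of mouse 2 or mouse 4 in 14. The median coefficient of variation over the 31 genes was 44.4% in b6/b6 against 42.4% in cast/cast mice (37.5% and 36.6% over all genes), and 33.5% in b6/b6 mice without mice 6 and 12. Counting error alone would give 10.6% for Cldn5 and 0.449% for Bsg, whose coefficients in b6/b6 mice were 63.9% and 44.3%. For Kdr, the gene with the lowest mean, counting error alone would give 36.2% against 70.0% in b6/b6 mice.

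The genes were also set against the main axis of variation of the whole data set. After subtraction of each genotype's mean, the first principal component of the genes outside the Chr 17 segment held 38.2% and the second 18.4% of the variance of 11643 genes. Across the 24 mice, 12 of the 31 vascular genes (38.7%) had a correlation below -0.5 with the first component and 5 (16.1%) one above 0.5, against 25.9% and 23.4% of all genes. Genes listed for 1 cell type were found at both ends. Bsg (r = 0.92), which many brain cells also make, and Egfl7 (0.81) lay at one end. At the other were Ramp2 (-0.88), Abcb1a (-0.84), Vtn (-0.80), Slco1c1 (-0.74), Esam (-0.73), Pecam1 (-0.73), Sox18 (-0.73) and Rgs5 (-0.67). Cldn5 (-0.03), Eng (0.03), Ly6a (-0.06), Pdgfrb (-0.10) and Cdh5 (-0.11) were nearly independent of it. These correlations describe 24 libraries that share the same component, and the part of tissue composition or library quality in it was not tested.

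**Figure D3:**
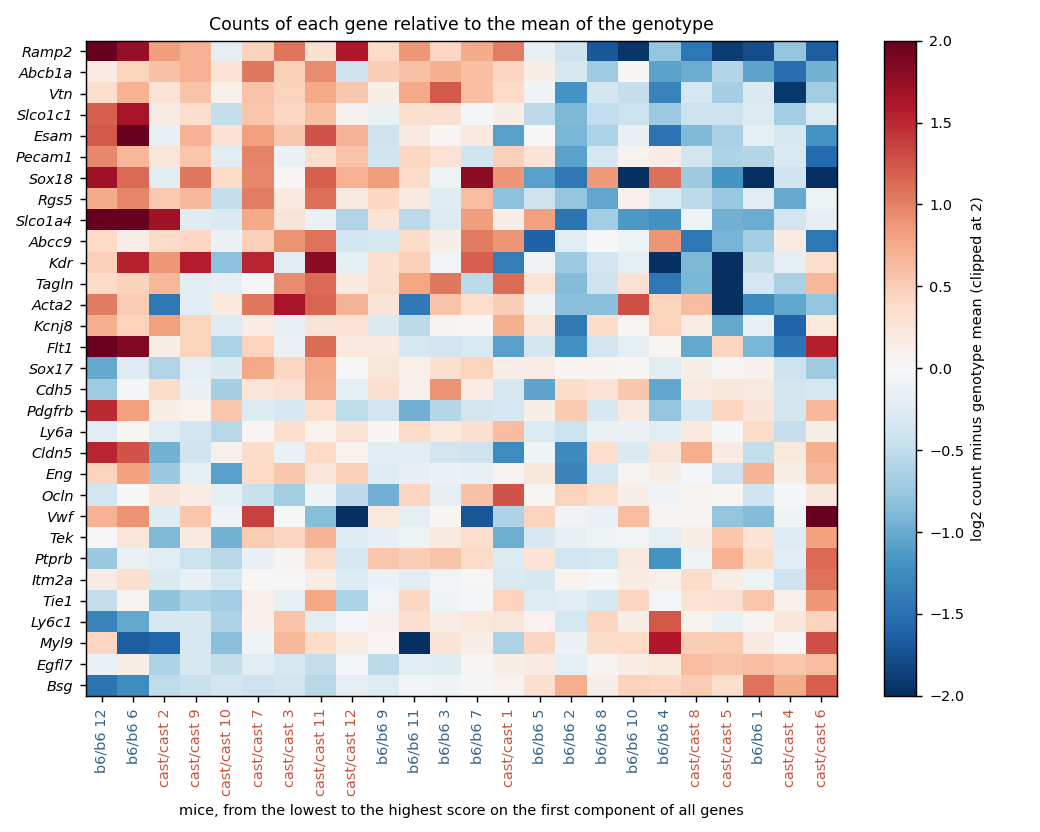
Log2 normalized count of each of the 31 genes minus the mean of the mouse's genotype (colour, clipped at 2), with genes in rows by their correlation with the first principal component and mice in columns by their score on it, b6/b6 names in blue and cast/cast names in red. Ramp2, Abcb1a and Vtn at the top run from high to low across the mice, Bsg and Egfl7 at the bottom run the other way, and b6/b6 mice 12 and 6 stand at the left edge.

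Whether vascular genes vary together was examined in 12 pairs, on log2 counts after subtraction of each genotype's mean (n = 24, permutation test within genotype, two-sided, Benjamini-Hochberg adjusted over the 12 pairs). Cldn5 and Pdgfrb joined an endothelial with a pericyte gene, and the other pairs were of genes listed for the same vascular cell. The pericyte genes Vtn and Rgs5 were correlated (r = 0.64, permutation P = 0.00078, adjusted P = 0.00936; rho = 0.66, P = 0.00064, adjusted P = 0.00768). The correlation was 0.57 within b6/b6 and 0.71 within cast/cast mice, and 0.61 without the 2 mice farthest from the median of Vtn. It was 0.69 without the 4 least alike libraries (adjusted permutation P = 0.00588), and fell to 0.39 (adjusted permutation P = 0.171) once the first 2 principal components were removed. Both genes had a higher r with an endothelial gene of the list, Vtn with Abcb1a (0.83) and Rgs5 with Kdr (0.80). With the pericyte genes Pdgfrb, Kcnj8 and Abcc9, r was -0.05, 0.53 and 0.33 for Vtn and 0.21, 0.46 and 0.40 for Rgs5. These further pairs were not tested. The predicted tag of Vtn lies in the coding sequence at chr11:78501612-78501638, and Rgs5 has 2, in the 3′ UTRs of transcripts of 4 and 5 exons at chr1:169683610-169683636 and chr1:169695394-169695420 (GRCm38, plus strand), the second of them 1894 bases past the end in the deposited table. Each was found in 1 annotated gene alone.
Vtn: CATGgtgtgccagggaaagtggacgct
Rgs5, form of 4 exons: CATGtaaactctttgacagacagacct
Rgs5, form of 5 exons: CATGgctcacagtacttaagtaatagt

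No other pair passed by r at an adjusted permutation P of at most 0.05. The receptors Tek and Tie1 had r = 0.51 (permutation P = 0.0396, adjusted P = 0.0951; rho = 0.47, P = 0.0435), which was 0.65 (adjusted permutation P = 0.0205) without the 2 mice farthest from the median of Tek and 0.68 (0.0313) without the 4 least alike libraries, and 0.49 (0.139) with the 2 components removed. Cldn5 and Itm2a had r = 0.49 (permutation P = 0.00963, adjusted P = 0.0578; rho = 0.49, P = 0.0148), and 0.58 (adjusted permutation P = 0.0328) without the farthest 2. It was 0.29 (adjusted permutation P = 0.325) without the 4 least alike libraries and 0.26 (0.336) with the 2 components removed. The VEGF receptors Flt1 and Kdr had r = 0.47 (permutation P = 0.0220, adjusted P = 0.0880), and by rank rho = 0.59 (P = 0.00419, adjusted P = 0.0251), with r = 0.40 without the farthest 2. Acta2 and Tagln had r = 0.46 (permutation P = 0.0359, adjusted P = 0.0951; rho = 0.35, P = 0.107), and 0.30 without the farthest 2. Pairs of the same junction, channel or factor family did not pass. Their r was -0.11 for Cdh5 and Pecam1, -0.39 for Cldn5 and Ocln, 0.14 for Sox17 and Sox18 and 0.19 for Kcnj8 and Abcc9, with adjusted permutation P between 0.114 and 0.612. Acta2 and Myl9 had r = 0.24 (adjusted permutation P = 0.332), and 0.67 (adjusted permutation P = 0.00396) after removal of the 2 components. Ly6a and Ly6c1 had r = 0.31 (adjusted permutation P = 0.181; rho = 0.42, P = 0.0444, adjusted P = 0.106). The endothelial Cldn5 and the pericyte gene Pdgfrb had r = 0.38 (adjusted permutation P = 0.154), and -0.46 (0.133) after removal of the 2 components. Over all 465 pairs of the 31 genes the median r was 0.14, with 63 pairs above 0.5 and 22 below -0.5, and after removal of the 2 components these were 38 and 3.

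**Figure D4:**
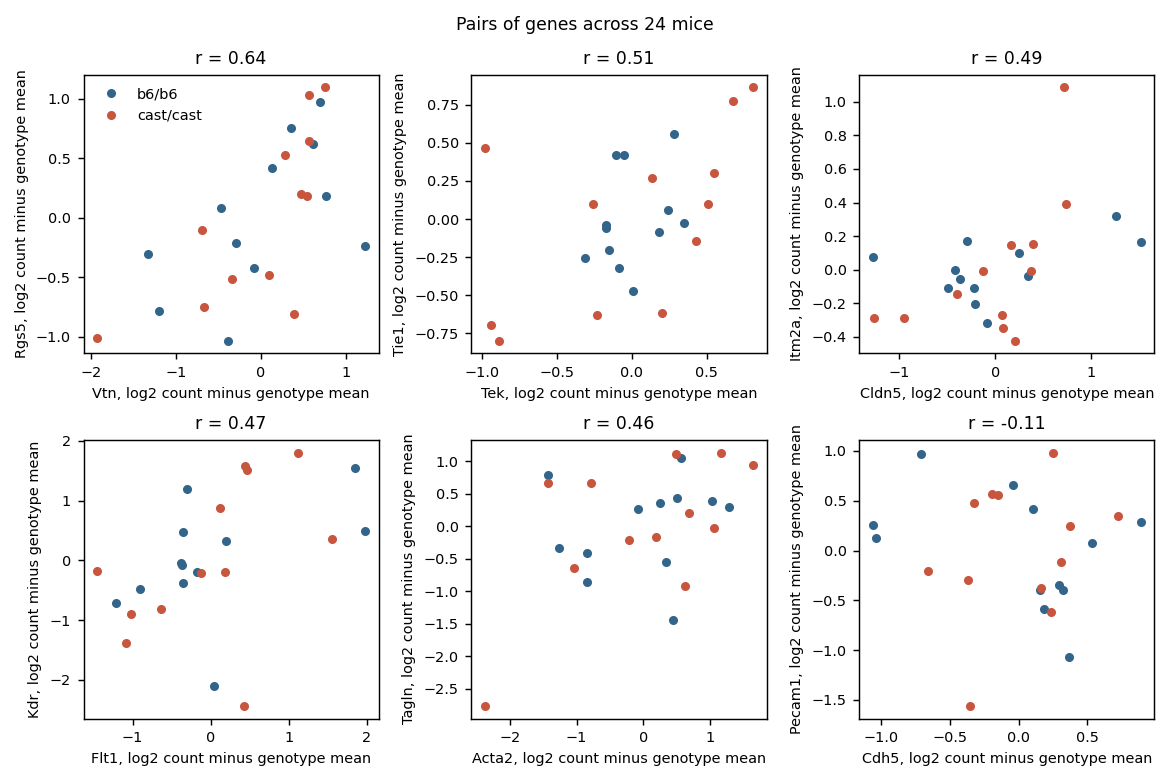
Log2 count minus the genotype mean of 1 gene against that of another in 24 mice (b6/b6 blue, cast/cast red) for 6 of the 12 pairs, with Pearson's r above each panel. Vtn and Rgs5 rise together in both genotypes (r = 0.64), while Cdh5 and Pecam1 show no common trend (r = -0.11).

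Of the 31 genes Slco1a4, Ramp2 and Slco1c1 had the lowest P for a slope on the study number of the mice. In a limma fit with genotype as a covariate, 878 of 13998 genes (6.27%) had a slope on study number with an unadjusted P of at most 0.01. So did these 3 of the 31, all with negative slopes, a count for which no test against that share was made. Per 100 study numbers Slco1a4 changed by -0.53 ± 0.14 on the log2 scale (SE, unadjusted limma P = 0.000921, adjusted P = 0.152), Ramp2 by -0.63 ± 0.19 (unadjusted limma P = 0.00326, adjusted P = 0.152) and Slco1c1 by -0.28 ± 0.10 (unadjusted limma P = 0.00695, adjusted P = 0.153). None passed at an adjusted P of 0.05, and neither did any gene of the table. The slope depended on b6/b6 mice 12 and 6, with study numbers of 27 and 42. Mouse 12 had 397 normalized counts of Slco1a4 and 68.5 of Ramp2, and mouse 6 had 346 and 36.4, against b6/b6 medians of 59.9 and 11.3. Without them the slopes were -0.29 for Slco1a4, -0.42 for Ramp2 and -0.11 for Slco1c1 (unadjusted limma P = 0.0501, 0.0663 and 0.239), 0 of the 31 genes passed, and 0.387% of all genes did. The b6/b6 mouse with the highest study number, 364, had the lowest Slco1a4 (28.2) and Slco1c1 (122) of all 24 mice. The lowest study number, 15, was that of cast/cast mouse 4, with 64.8 of Slco1a4, 130 of Slco1c1 and 5.08 of Ramp2. These counts were below the cast/cast medians of 75.8, 225 and 12.7, which goes against the direction of the slopes.

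**Figure D5:**
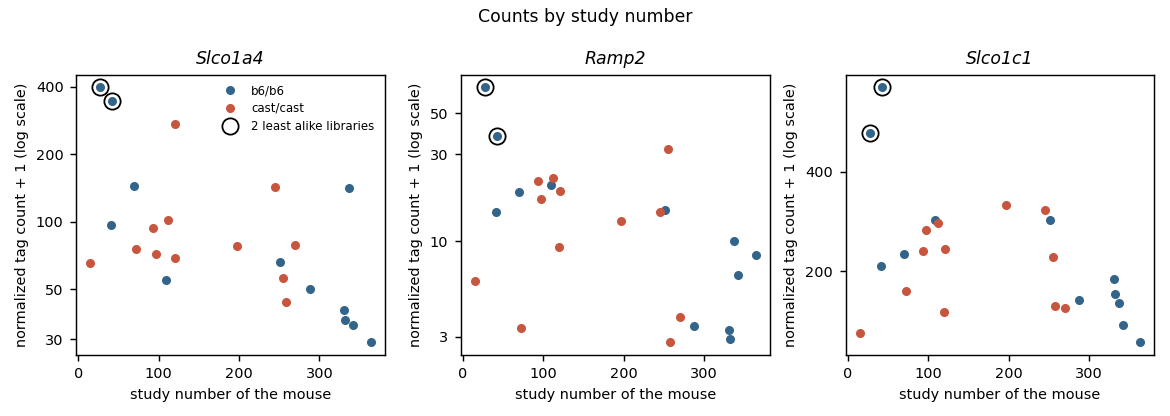
Normalized count plus 1 (log axis) of Slco1a4, Ramp2 and Slco1c1 against the study number of each mouse, with b6/b6 mice in blue, cast/cast mice in red and black rings around the 2 least alike libraries. The ringed mice have study numbers of 27 and 42 and the highest counts of Slco1a4, Ramp2 and Slco1c1 of all 24 mice.

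The tags of these 3 genes are shown since each gene has 1 predicted tag, matching no other annotated gene. That of Slco1a4 lies at chr6:141805473-141805499 (minus strand) and that of Slco1c1 at chr6:141570137-141570163 (plus strand), both in the 3′ UTR, and that of Ramp2 in the coding sequence at chr11:101247982-101248008 (plus strand, GRCm38).
Slco1a4: CATGagggacttcagtccctctggatt
Slco1c1: CATGaattaggtaactctgtacttaga
Ramp2: CATGatcatagcccccatctgcctcat

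Within genotype the genes showed no relation to intake that passed. For the kcal eaten from the C/P diet over 10 d, 0 of the 31 genes had an unadjusted limma P of at most 0.01, against 0.572% of all genes. The lowest was that of Ptprb, with 0.35 ± 0.15 per 10 kcal on the log2 scale (SE, unadjusted limma P = 0.0244, adjusted P = 0.960). For total kcal 0 of the 31 passed, against 1.77% of all genes. At an unadjusted P under 0.05, which 9.96% of all genes reached, the mural genes Tagln, Kcnj8 and Vtn had positive slopes of 0.55 ± 0.20, 0.34 ± 0.15 and 0.38 ± 0.17 per 10 kcal (SE, unadjusted limma P = 0.0106, 0.0363 and 0.0377), and Tek a negative one of -0.24 ± 0.11 (unadjusted limma P = 0.0442), each with an adjusted P between 0.485 and 0.497. The slopes of the other mural genes were -0.30 for Myl9, -0.13 for Pdgfrb, -0.13 for Abcc9, -0.09 for Rgs5 and 0.06 for Acta2. Without b6/b6 mice 6 and 12 the slopes of Tagln (0.62) and Kcnj8 (0.41) had an unadjusted limma P of 0.00583 and 0.00931, so that 2 of 31 passed, against 1.92% of all genes in that fit, both with an adjusted P of 0.456. With cast/cast mice 6 and 1 left out as well, their unadjusted limma P was 0.0146 and 0.0225. In that fit 0 of the 31 passed, against 1.28% of all genes.

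Beyond the 31 genes, 89 of 100 further genes of vascular signalling, barrier, mural cells and basement membrane were in the table. Their median log2 fold change was -0.03, and 1 of the 89 was called, where 1.49% of all genes were. Ndp encodes norrin, a ligand of the Wnt receptor frizzled 4 that maintains the barrier and is made in the brain largely by astrocytes. It ranged from 106 to 250 normalized counts in b6/b6 mice (median 142) and from 20.3 to 218 in cast/cast mice (median 93.1), with 8 of 12 cast/cast mice below every b6/b6 mouse. The means of 157 ± 50.4 and 102 ± 55.3 (SD, n = 12 each) gave a log2 fold change of -0.78 ± 0.27 (SE, unadjusted limma P = 0.00796, adjusted P = 0.469). With edgeR, with DESeq2, with study number as a covariate and without b6/b6 mice 6 and 12 it was not called (unadjusted P = 0.0204, 0.0159, 0.0179 and 0.0222), and without cast/cast mice 6 and 1 as well as these 2 it was called (P = 0.00978). Its adjusted P ran from 0.0585 to 0.897 over the settings tried. Of the receptor itself, Fzd4, the medians were 10.6 and 7.96.

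The Notch receptors Notch3 and Notch4 of the vessel wall lie inside the CAST segment of Chr 17, where the genotypes do differ. Notch4, the endothelial receptor, had means of 589 ± 264 in b6/b6 against 786 ± 287 in cast/cast mice (SD, n = 12 each), a log2 fold change of 0.56 ± 0.28 (SE, unadjusted limma P = 0.0599, adjusted P = 0.612), which was 0.18 without b6/b6 mice 6 and 12. Notch3, the receptor of smooth muscle and pericytes, had means of 22.9 and 17.7, and was at 0 in at least 1 mouse of each genotype. Besides Ndp, 3 of the 89 genes, picked out after their values were seen like Fzd4, had an unadjusted limma P under 0.05, which 8.13% of all genes reached. They were Jam2 (a junction molecule, -0.32) and Agrn (the basement membrane proteoglycan agrin, -0.50) with negative and Tpm2 (a tropomyosin, 0.47) with a positive log2 fold change, each with an adjusted P between 0.607 and 0.608.

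Markers of the other cell types a hypothalamic block can hold were also compared. Of 42 such genes 0 were called, where 1.49% of all genes were. Alas2 and Tmem119 are named below after their values were seen. All 3 blood genes had lower levels in cast/cast mice, with log2 fold changes of -0.91 to -0.92, of which Alas2, the first enzyme of haem synthesis in red cells, had an unadjusted limma P of 0.0456. Of 6 microglial genes Aif1, which lies in the CAST segment, had a log2 fold change of 0.56 (unadjusted limma P = 0.0411) and Tmem119 at -0.78 (unadjusted limma P = 0.0268). Mog, a myelin gene also in the segment, was at 0.28. The 8 genes of the leptomeninges had log2 fold changes from -0.43 to 0.41 and the 4 of the choroid plexus, whose defining marker Ttr had medians of 16.4 and 22.7, from -0.31 to 0.24. The pituitary gene Gh was at 0 in some mice of each genotype and reached 467 in a b6/b6 mouse. The part of such admixture in the vascular values was not tested.

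Promoter sequence was available in the RefSeq table (GRCm38) for 19 of the 31 genes, covering 250 bases before to 50 after each start. The CArG box (the consensus of serum response factor, which switches on contractile genes, searched on both strands) was in 1 of the 19, Myl9, and in 1.81% of 27025 genes. It is shown, in capitals, within 50 bases at chr2:156775283-156775332 (plus strand), 161 bases before the start.
Myl9: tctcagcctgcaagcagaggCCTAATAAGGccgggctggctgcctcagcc
The motif AGGAAG, a common core of ETS factors, which direct endothelial genes, was found on either strand in 9 of the 19 (47.4%) and in 38.4% of all genes, a share close to that background. A match is a run of letters and not a site shown to be bound.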

How the data were processed

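SAGE-Seq libraries were sequenced by the authors from the hypothalamus of 12 cast/cast and 12 b6/b6 mice. Tags were mapped with SOLiD SAGE Analysis Software 1.10 (GRCm38/mm10, per the labels), and the deposited values are normalized signal: tag hits divided by a DESeq size factor. Whole hits were recovered for 100% of values (tolerance 0.01). The columns that the authors deposited with their own comparison (means, fold ratio, log2 ratio and p-values) were not used.

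The table has 19529 rows and 13998 genes, the lowest gene mean being 6.03. limma 3.58.1 (R 4.3.3, trended variance) was fitted to log2(normalized count + 1) over 13998 genes in 24 mice, so fold changes of rare genes are understated. Each library is a separate mouse, and replicates are numbered in accession order. Slopes had genotype as a covariate. Calls used an unadjusted P of at most 0.01 with a ratio of at least 1.5 between genotypes. The scripts were tested on simulated data. Pair correlations used 100000 permutations.

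Named genes were all listed genes in the table, and from the other lists those called or inside the CAST segment. The members and lists were chosen with earlier results of these data known. Alternatives were a pseudocount of 0.5 or 5, a minimum mean of 20, rescaled libraries, edgeR 4.0.16 and DESeq2 1.42.0 on the tag hits and study number as a covariate. Leaving out the 2 or 4 least alike libraries and adjusting for 2 principal components were chosen after seeing the data. Tags were predicted from GENCODE transcripts (GRCm38) that pair with RefSeq, for 30 of the 31 genes. They gave 39 tags, of which 5 lie past the gene end in the deposited table, among them every tag of Itm2a, Kdr and Ocln.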

Additional observations from a re-analysis of the deposited data

How the results depend on the processing

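No gene of the list was called between genotypes under any setting tried, and the median log2 fold change of the 31 genes ran from -0.17 (rescaled libraries) to 0.02 (without the 4 least alike libraries). The count with an unadjusted P under 0.05 was 0 in the limma fit and 2 with 2 principal components as covariates (Flt1 and Bsg), 2 with DESeq2 (Flt1 and Vwf) and 2 with study number as a covariate (Flt1 and Bsg). In these fits 25.8%, 12.1% and 14.8% of all genes had such a P, against 8.13% in the limma fit. Rescaling the libraries moved the median of all genes from -0.02 to -0.11. Of 279 values of the genes under alternatives 238 kept their sign, and 14 of the 31 genes kept it in all of them. These values include the fit with 2 principal components, in which the sign could not change because the components were computed after subtraction of genotype means. The count of slopes on study number fell from 3 to 0 with 2 principal components as covariates, to 0 without the 2 and to 0 without the 4 least alike libraries. That on total intake rose from 0 to 2 without the 2 least alike libraries and was 0 without the 4 least alike. The count of pairs with an adjusted permutation P of at most 0.05 was 1, and 3 with a pseudocount of 5, 4 with rescaled libraries, 3 without the 2 mice farthest from the median, and 2 without the 4 least alike libraries. The cause of these changes was not tested. No paired analysis was possible because the labels give the mice no replicate numbers shared between genotypes. Depth limits Kdr, Sox18 and Vwf most, which were at 0 in some mice.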

Other observations

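The genes whose levels followed those of Cldn5 and Acta2 most closely across the 24 mice, after subtraction of each genotype's mean, were not other vascular markers of the list. For Cldn5 the 8 highest correlations were with Uqcr10 (r = 0.90), Rhbdl1 (0.89), Zfp932 (0.86), Gak (0.85), Dusp22 (0.84), Ypel4 (0.84), Orc3 (0.84) and Pcyt2 (0.83). Uqcr10 encodes a subunit of complex III of the respiratory chain. For Acta2 they were with Emc7 (0.72), Tubgcp3 (0.71), Acot13 (0.70), BC048546 (0.70), Arl16 (0.69), Nfya (0.68), Srrt (0.68) and 4930550C14Rik (0.68). These are the highest of 13998 correlations over 24 libraries that share a strong common component, and are given as a description only. Cldn5 itself had r = -0.03 with the first principal component. Its highest counts, 245 and 204, were those of b6/b6 mice 12 and 6, which also scored highest on the second (0.63 and 0.47). The correlations were not computed without these mice.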
